A study of Bos taurus and Ovis aries and Capra hircus with 9 samples.

Results

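Liver transcripts of 6 genes of the mitochondrial sequence were followed in cattle, sheep, and goats: COX1, COX2, and COX3, which encode the core subunits of cytochrome c oxidase (complex IV), ATP6 and ATP8, which encode subunits of the membrane part of ATP synthase (complex V), and CYB, which encodes cytochrome b of complex III. The genes were taken by their order on the mitochondrial sequence, after rows under 100 nt, which are tRNAs, had been dropped. They are 6 of the 15 longer mitochondrial rows and of 27607 gene rows in cattle, and 6 of 15 and of 27271 in goats. The sheep tables hold 13 longer mitochondrial rows of 26478, and among the 6 genes there is a row for 5; ATP8 was therefore not analysed here in sheep. Livers came from healthy adults with no treatment given: 3 cattle (Holstein), 3 sheep (Texel), and 3 goats (Yunnan black goat). Each animal gave 1 RNA-seq library, made from poly(A)-enriched RNA and named replicate A, B, or C of its species. Each species is thus represented by a single breed, and by the study's methods the cattle were of an older age range than the sheep and goats, so that species, breed, and age cannot be told apart. No sex or batch is given for the animals. The tissue label could not be set against liver marker genes, because the nuclear gene identifiers were not paired with names here.

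Mammalian mitochondrial DNA is transcribed as long precursor RNAs that carry many genes, and most mRNAs are released by excision of the tRNAs that lie between them. ATP8 and ATP6 overlap and are known to stay together on a single mRNA, and no tRNA separates ATP6 from COX3. The encoded proteins carry out the last steps of respiration: cytochrome b passes electrons on within complex III, COX2 takes electrons from cytochrome c into complex IV, COX1 holds the centre at which oxygen is reduced, COX3 completes the core, and ATP6, which forms the path for protons, works with the small ATP8 in making ATP. Liver is rich in mitochondria, and these transcripts are among the abundant RNAs of the tissue.

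The names of the cattle genes were taken from RefSeq (ARS-UCD2.0), where all 37 mitochondrial rows have the same start and end as in the deposited ARS-UCD1.2 tables, and those of sheep and goats from the order of the rows and their lengths. In cattle, COX1 (ENSBTAG00000043561) lies at MT:5687-7231, COX2 (ENSBTAG00000043556) at MT:7374-8057, ATP8 (ENSBTAG00000043564) at MT:8129-8329, ATP6 (ENSBTAG00000043584) at MT:8290-8970, COX3 (ENSBTAG00000043560) at MT:8970-9750, and CYB (ENSBTAG00000043550) at MT:14514-15653. All 6 are single-exon genes on the + strand in each species. In sheep (Oar_rambouillet_v1.0) COX1 starts at position 5332 and CYB ends at position 15298, and in goats (ARS1) these positions are 5329 and 15292. COX1 (1545 nt), COX2 (684 nt), and CYB (1140 nt) have the same length in the 3 species. COX3 is annotated with 781 nt in cattle and 784 nt in sheep and goats, and ATP6 with 681 nt in cattle and goats and 679 nt in sheep. ATP8 overlaps ATP6 by 40 nt in cattle and in goats, where it has 201 and 198 nt, and ATP6 shares 1 base with COX3. In sheep the annotated ATP6 starts 162 nt after the preceding tRNA, without a gene row on that stretch, and ends 1 base before COX3. How reads on 2 overlapping genes were counted is not given in the sources used here, so the values of ATP8 and ATP6, and of COX3 at its edge, are less certain than those of the other genes.

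**Figure D1:**
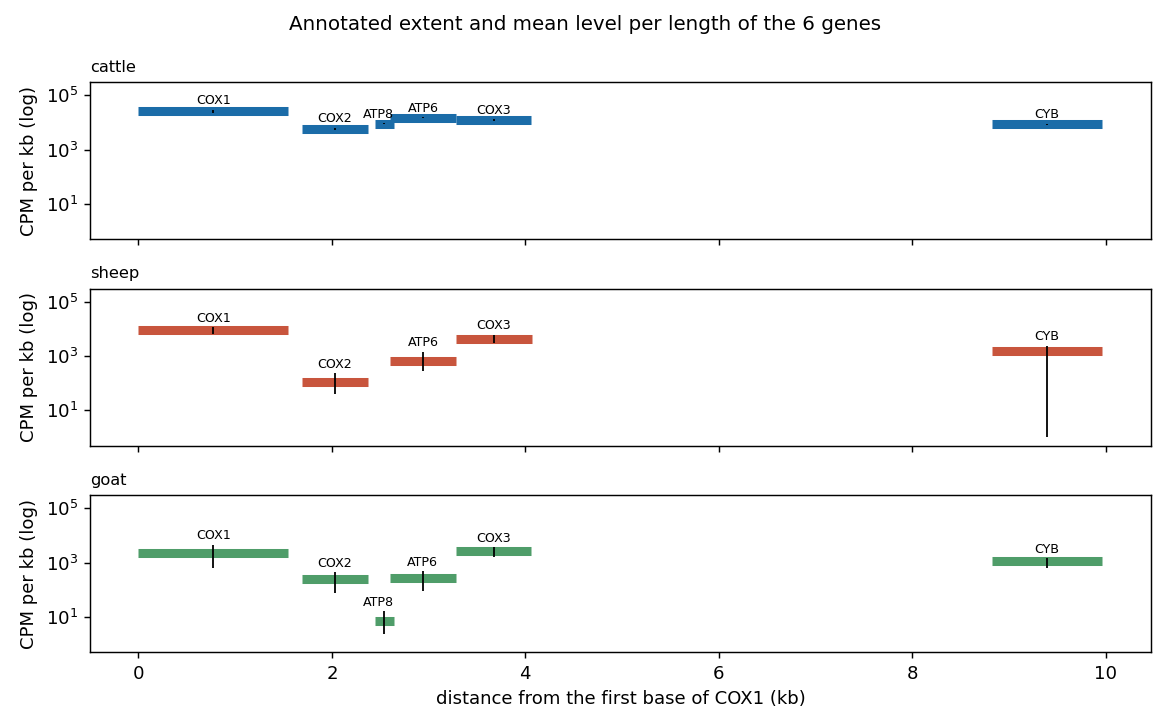
Annotated extent of the genes against the distance from the first base of COX1 in kb (x axis), with the mean level as CPM per kb of annotated length (y axis, log scale); thick lines are genes at the mean of 3 animals and thin vertical lines run from the lowest to the highest animal. In cattle the 6 genes lie within a narrow band, whereas in sheep COX2 and ATP6, and in goats ATP8, COX2, and ATP6, lie far below their neighbours.

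The total counts on genes ran from 16507706 to 61105490 per library, and 3 counts, taken as the lowest value that can be told from none, correspond to a CPM of 0.0491 to 0.182. Levels are given as CPM, the counts scaled to 1e6 of the library total, and, where genes are compared with each other, as CPM per kb of annotated length. Counts of 2 replicates of a species differed by a chi-square of at least 101 per degree of freedom over genes, so all 9 libraries were counted as separate samples. Intervals and floors cover counting error only, not differences between animals. They treat reads as independent, and PCR copies of reads are not independent molecules, so the counting error may be larger. In bulk liver RNA, fewer mitochondria-rich cells and less mitochondrial RNA per cell cannot be told apart. The counts are of reads assigned to a gene row, which need not follow RNA abundance equally in each species. The parts of poly(A) enrichment, mismatches to the reference, and multi-mapping in the differences between species were not tested.

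The 5 genes with a row in all 3 species took a larger share of the liver counts in cattle than in sheep or goats. Together COX1, COX2, COX3, ATP6, and CYB made up 7.43% of the library total in cattle replicate A, 7.86% in B, and 6.71% in C. The shares in the same order were 2.43%, 1.80%, and 1.69% for the sheep, and 0.298%, 0.706%, and 1.21% for the goats. No library of 1 species overlapped another species, and the means were 7.33% ± 0.579 in cattle, 1.98% ± 0.397 in sheep, and 0.738% ± 0.457 in goats (SD, n = 3; exact permutation test of the F statistic over 280 ways of grouping the libraries, p = 0.00357, the smallest it can give). The shares in goats ran in the opposite order to depth, since the totals were 35647106, 22921767, and 16507706 counts in replicates A, B, and C. Between species, the totals of the cattle (47996593 to 61105490) were above those of every sheep (28332266 to 40784417) and goat. The part of depth in these differences was not tested.

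Relative to the counts of all mitochondrial mRNA genes with a row, the order of the species was another. Sheep lack rows for ATP8 and the complex I gene ND4L, so their denominator holds fewer genes. In cattle, ATP8 made up 1.68% to 1.93% of these counts. Of these counts, the 5 genes held 70.9% ± 2.23 in cattle, 84.1% ± 3.54 in sheep, and 37.5% ± 5.003 in goats (SD, n = 3), again without overlap (exact permutation test, p = 0.00357). By definition the remainder holds only complex I genes and, in cattle and goats, ATP8. The 6 complex I genes listed in every species took 2.53% to 3.05% of a cattle library. They took 0.249% to 0.444% of a sheep library and 0.575% to 2.24% of a goat library. The goats thus had the smallest share on the oxidase, ATP synthase, and cytochrome b genes, and the sheep on these complex I genes.

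**Figure D2:**
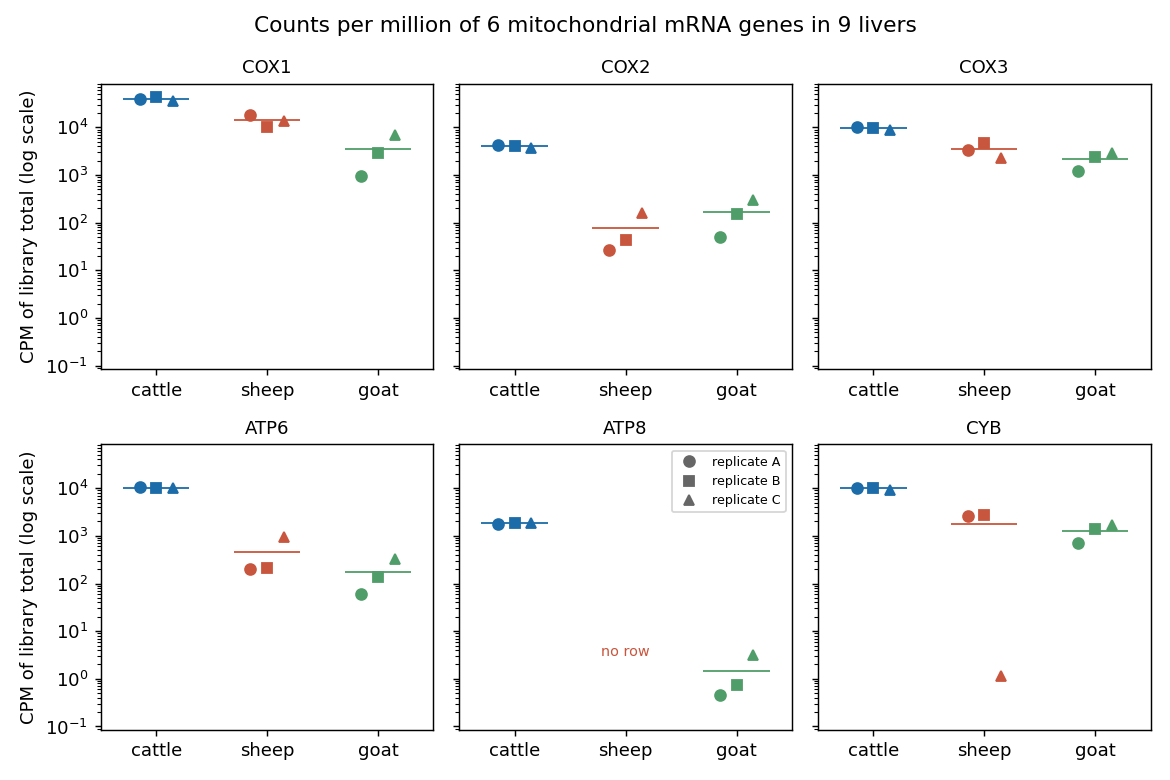
CPM of the library total (y axis, log scale) of each gene in each animal, by species (x axis); symbols mark replicates A, B, and C and horizontal lines the mean of 3 animals. The cattle libraries lie above all sheep and goat libraries for each gene, ATP8 in goats is near 1 CPM, and CYB of sheep replicate C stands far below the other sheep.

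Between species, counts were tested with edgeR's quasi-likelihood test over 7642 genes, which are nuclear genes matched between the 3 annotations together with the longer mitochondrial genes listed in all 3, and p-values were adjusted over all of them. Differences between these livers were common. At an adjusted p under 0.05, 48.9% of all genes tested differed between cattle and sheep and 23.1% were higher in cattle, and of the 5 genes considered here 4 were higher in cattle. Between cattle and goats 52.3% of all genes differed and 25.6% were higher in cattle, among them 4 of the 5. Between sheep and goats 25.5% differed and 12.4% were higher in sheep, among them 1 of the 5. By CPM, 5 of the 5 genes lay higher in every cattle library than in any sheep library, as did 28.7% of all genes (63.7% did not overlap in either direction). Against goats this held for 6 of 6 genes, ATP8 included, and for 25.8% of all genes (57.5% in either direction). COX1 alone, 1 of 5, separated sheep from goats, against 14.5% of all genes with every sheep above every goat and 31.5% in either direction. The genes share a sequence and libraries, and so they are not independent of each other.

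COX1, the catalytic subunit of complex IV, had the highest CPM per kb of the genes in every cattle and sheep library. Its CPM was 38759.6, 44369, and 35481 in cattle A, B, and C, 18124, 10314.5, and 13513 in sheep, and 939, 2936, and 6947 in goats. Cattle were above sheep and sheep above goats in every library, while the goats themselves ranged over 7.40-fold. The mean in cattle was 2.83 times that in sheep and 10.96 times that in goats, or 20.4 times without goat replicate C. The log2 fold change of cattle against sheep was 1.59 (SE 0.54, edgeR adjusted p = 0.0285). This call rested on each cattle and sheep library: without any single cattle or sheep replicate the edgeR adjusted p rose to between 0.0509 and 0.089. Without TMM scaling it was 0.0518. Without single goat replicates the edgeR adjusted p was 0.00636 to 0.0435, and DESeq2 on all libraries gave an adjusted p of 0.00105. Against goats the log2 fold change of cattle was 3.76 (SE 0.58, edgeR adjusted p = 0.00037). For sheep against goats it was 2.16 (SE 0.55, edgeR adjusted p = 0.0137; 0.0534 without goat replicate B).

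COX2, which carries the copper centre that takes electrons from cytochrome c, showed a wider gap. Its CPM was 4385, 4152, and 3700.3 in cattle, 26.9, 44.0, and 162 in sheep, and 50.9, 149, and 306 in goats. Every cattle library was at least 22.9 times the highest sheep library and 12.1 times the highest goat library, whereas sheep and goats overlapped. The log2 fold change of cattle was 5.86 (SE 0.76, edgeR adjusted p = 1.16e-04) against sheep and 4.88 (SE 0.72, edgeR adjusted p = 2.82e-04) against goats, and that of sheep against goats was -0.98 (SE 0.62, edgeR adjusted p = 0.276). Without sheep replicate C, these values were 6.80 for cattle against sheep (edgeR adjusted p = 1.78e-04) and -1.90 for sheep against goats (edgeR adjusted p = 0.0563). Sheep replicate C stood 6.01 times above replicate A, and goat replicate C 6.01 times above goat replicate A.

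COX3, the last core subunit of complex IV, was higher in cattle than in both other species, by smaller folds than COX2 and ATP6. It had a CPM of 10200.3, 9940, and 8692 in cattle, 3372, 4734, and 2307 in sheep, and 1213, 2424, and 2856 in goats. Cattle were above the other animals in every library, and sheep and goats overlapped. The log2 fold change was 1.47 (SE 0.46, edgeR adjusted p = 0.021) for cattle against sheep and 2.32 (SE 0.48, edgeR adjusted p = 0.00203) for cattle against goats. The first of these calls was lost without cattle replicate A (edgeR adjusted p = 0.0575), sheep replicate A (0.0728), or sheep replicate C (0.0749). For sheep against goats the log2 fold change was 0.85 (SE 0.46, edgeR adjusted p = 0.201).

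ATP6, the proton-channel subunit of ATP synthase, was far higher in cattle than in both other species. Its CPM was 10615, 9995, and 10148 in cattle, 197, 216, and 965 in sheep, and 61.4, 139.8, and 332 in goats. The mean in cattle was 22.3 times that in sheep and 57.7 times that in goats, while sheep and goats overlapped. These folds were 49.6 without sheep replicate C and 102 without goat replicate C. The log2 fold change of cattle was 4.64 (SE 0.70, edgeR adjusted p = 3.11e-04) against sheep and 6.15 (SE 0.75, edgeR adjusted p = 8.56e-05) against goats. Sheep were at a log2 fold change of 1.51 over goats (SE 0.61, edgeR adjusted p = 0.0953), a difference that DESeq2 placed at an adjusted p of 0.0304. Without sheep replicate C, the log2 fold change was 5.62 for cattle against sheep (edgeR adjusted p = 2.35e-04) and 0.54 for sheep against goats (edgeR adjusted p = 0.532).

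ATP8, a small membrane subunit of ATP synthase, had few counts in goats. The cattle had 86974, 103716, and 112231 counts of it, a CPM of 1812, 1840.1, and 1837. This was the steadiest CPM of the library total among the 6 genes in cattle, with a coefficient of variation of 0.836%. After division by TMM factors, the highest cattle library was 1.10 times the lowest for ATP8, against 1.15 to 1.22 for the other genes. In goats it had 16, 17, and 52 counts. These are a CPM of 0.449 (95% Poisson interval 0.257 to 0.729), 0.742 (0.432 to 1.19), and 3.15 (2.35 to 4.13). The interval of goat replicate C thus lay above those of the other goats. The mean in cattle was 1265 times that in goats, and the lowest cattle library was 575 times the highest goat library. Without goat replicate C the means differed 3074-fold. In a fit of the 6 cattle and goat libraries over 7500 genes, the log2 fold change was 10.66 (SE 0.77, edgeR adjusted p = 8.21e-05), or 11.50 without goat replicate C (edgeR adjusted p = 9.19e-05), and 99.8% of the genes had a smaller absolute fold change. In this fit 6 of the 6 genes were higher in cattle at an adjusted p under 0.05, as were 25.8% of all genes (52.0% differed in either direction).

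CYB, the only mitochondrially encoded subunit of complex III, lay higher in every cattle library, and 1 sheep set how firmly this could be stated. Its CPM was 10336, 10140.6, and 9106 in cattle, 2584, 2705, and 1.16 in sheep, and 717, 1411, and 1665 in goats. Sheep replicate C had 33 counts (95% Poisson interval 22.7 to 46.3), against 101550 and 110305 in replicates A and B, so the highest sheep library was 2322 times the lowest. Over all libraries, the log2 fold change of cattle was 2.45 against sheep (SE 1.39, edgeR adjusted p = 0.164) and 3.13 against goats (SE 1.43, edgeR adjusted p = 0.0855), neither of which passed the threshold. Without sheep replicate C, the log2 fold changes were 1.89 (edgeR adjusted p = 0.0107) and 3.15 (edgeR adjusted p = 3.45e-04). With the 6 cattle and goat libraries alone, the latter was 3.12 (edgeR adjusted p = 9.87e-04). The biological coefficient of variation that edgeR estimated for CYB was 1.0097, against 0.365 to 0.505 for COX1, COX2, COX3, and ATP6 and a median of 0.302 over all genes.

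**Figure D3:**
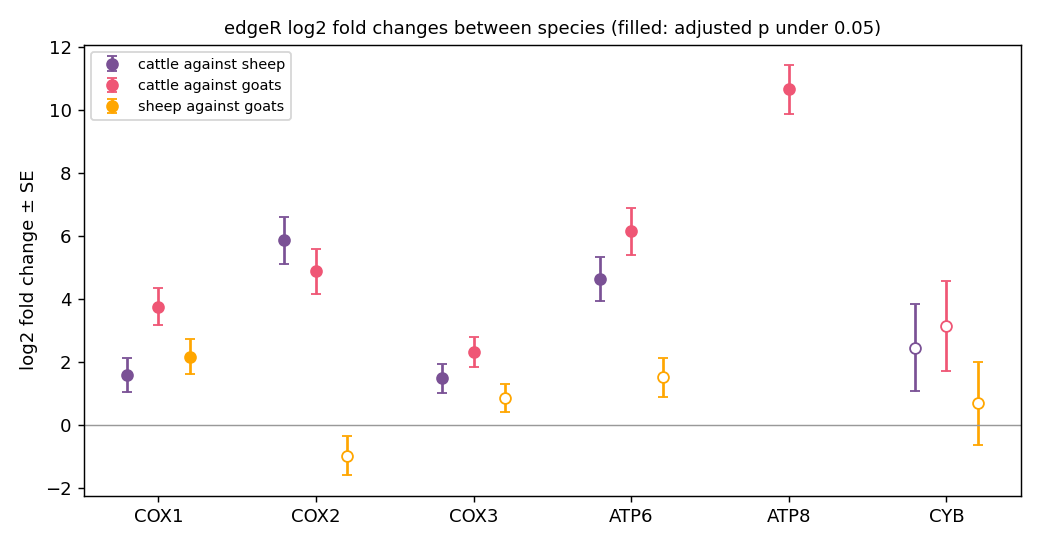
edgeR log2 fold change of each gene (y axis, with SE bars) in the 3 comparisons between species; filled points passed an adjusted p of 0.05, and ATP8 comes from the fit of cattle and goats alone. The cattle values run from 1.47 for COX3 against sheep to 10.66 for ATP8 against goats, and the CYB points, with wide bars, did not pass.

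The order of the genes by level per length differed between the species. In cattle, CPM per kb ran from 22965 to 28718 for COX1, from 14677 to 15587 for ATP6, from 11130 to 13061 for COX3, from 9015 to 9155 for ATP8, from 7988 to 9067 for CYB, and from 5410 to 6410 for COX2. Each of these neighbours was separated from the next except ATP8 and CYB, which overlapped. In sheep, CPM per kb of COX1 (6676 to 11731) and of COX3 (2943 to 6038) stayed on top without overlap, but ATP6 (290.01 to 1422) and COX2 (39.4 to 237) were below CYB in replicates A and B. In goats, COX3 (1548 to 3643) and COX1 (608 to 4496) had overlapping ranges. CYB (629 to 1460.1) lay below COX3 in every goat, and above COX1 in replicate A only. The ranges of ATP6 (90.1 to 487) and COX2 (74.4 to 447) overlapped, and ATP8 (2.27 to 15.9) came last. COX3 was the gene with the highest CPM per kb in goat replicates A and B and COX1 in replicate C.

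The division of the counts among the 5 genes was nearly the same in the 3 cattle. COX1 took 53.8% ± 2.30 of the counts of the 5 genes in cattle, 70.5% ± 11.8 in sheep, and 43.5% ± 13.1 in goats (SD, n = 3). COX3 took 13.1% ± 0.559 in cattle, 17.9% ± 7.24 in sheep, and 32.9% ± 8.64 in goats. For ATP6 the shares were 14.0% ± 1.22, 2.57% ± 2.72, and 2.26% ± 0.419, and for COX2 5.57% ± 0.313, 0.437% ± 0.454, and 2.12% ± 0.410. Those of CYB were 13.5% ± 0.513, 8.55% ± 7.72, and 19.3% ± 5.19, with 0.00687% in sheep replicate C. The small shares of ATP6 and COX2 outside cattle were found in every sheep and goat. Of these animals, sheep replicate C had the highest ATP6 share, 5.70%. The shares of a library have a fixed sum, so its low CYB share raises its other shares.

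**Figure D4:**
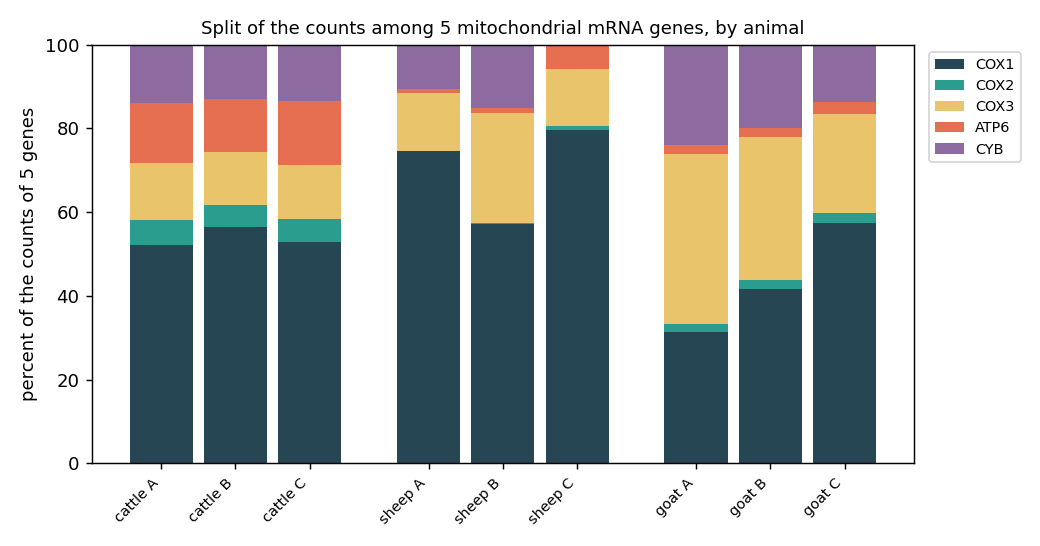
Percent of the summed counts of COX1, COX2, COX3, ATP6, and CYB (y axis) taken by each gene in each animal (x axis). The cattle bars are alike, ATP6 and COX2 shrink in all sheep and goats, CYB is missing from the bar of sheep replicate C, and the COX1 part of the goat bars runs from 31.5% to 57.4%.

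Ratios of the counts of 2 genes within a library do not depend on its total or on scaling. Among the 5 genes listed in all species, the SD over animals of the log2 ratio was 0.021 to 0.183 in cattle for the 10 pairs, 0.287 to 7.72 in sheep, and 0.0121 to 0.842 in goats. For 5 of the 10 pairs the ratio differed between species at p under 0.05 in an exact permutation test of the F statistic, and the p-values of the 10 pairs ran from 0.00357, the smallest possible, to 0.957, without adjustment. Leaving out sheep replicate C raised the number to 8, and ranks in place of log2 ratios (Kruskal-Wallis) lowered it to 3, as COX1 over ATP6 (exact permutation p = 0.05) and COX3 over ATP6 (0.0714) no longer passed. Cattle were apart from goats for 9 pairs, from sheep for 6, and sheep from goats for 2. The 10 pairs are drawn from 5 genes and are not independent of each other. The share of non-overlapping ratios among pairs of other genes was not computed, so these counts cannot be called particular to the 5 genes.

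Within complex IV, COX1 had 8.84, 10.7, and 9.59 counts per COX2 count in the cattle, 673, 234, and 83.5 in sheep, and 18.4, 19.7, and 22.7 in goats. The 3 species did not overlap, although the sheep ratios themselves ranged widely (exact permutation test, p = 0.00357). COX1 over COX3 was 3.80, 4.46, and 4.08 in cattle and 5.38, 2.18, and 5.86 in sheep, which overlapped, and 0.774, 1.21, and 2.43 in goats (exact permutation test, p = 0.0714). Cattle and sheep thus overlapped in the ratio of COX1 to COX3, but not in that of COX1 to COX2.

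Within ATP synthase, ATP6 had 5.86, 5.43, and 5.53 counts for each count of ATP8 in cattle and 137, 188, and 105 in goats. The groups did not overlap, and p = 0.1 is the smallest value that an exact permutation test of 3 against 3 animals can give. Both annotations give the pair an overlap of 40 nt, and how shared reads entered the counts was not tested.

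Of the ratios among the genes listed in all species, COX3 over CYB had the smallest SD in goats and COX2 over ATP6 in sheep, both across complexes. In cattle all ratios varied little, and the smallest SD was that of COX2 over COX3 (0.021 on the log2 scale). In cattle, COX3 had 0.987, 0.980, and 0.955 counts per CYB count, and in goats 1.69, 1.72, and 1.72. The SD of this log2 ratio over the goats was 0.0121, although the CPM of COX3 and CYB varied 2.35-fold and 2.32-fold between these animals. In sheep replicates A and B it was 1.31 and 1.75, and in replicate C 1981. The counts of COX2 per ATP6 count were 0.413, 0.415, and 0.365 in cattle, 0.137, 0.204, and 0.168 in sheep, and 0.829, 1.07, and 0.922 in goats, separate for all species and the steadiest ratio in sheep (SD 0.287 on the log2 scale; exact permutation test, p = 0.00357).

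COX3 and ATP6, which are adjacent, were at 0.961, 0.994, and 0.857 COX3 counts per ATP6 count in cattle, but at 17.1, 21.9, and 2.39 in sheep and 19.8, 17.3, and 8.61 in goats (exact permutation test, p = 0.0286). Cattle stood apart from both other species. In sheep replicate C the ratio was closer to the cattle range than in any other sheep or goat. This call was lost without any cattle replicate, goat replicate A, or goat replicate B (exact permutation p = 0.05 to 0.0643), and with ranks in place of log2 ratios.

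**Figure D5:**
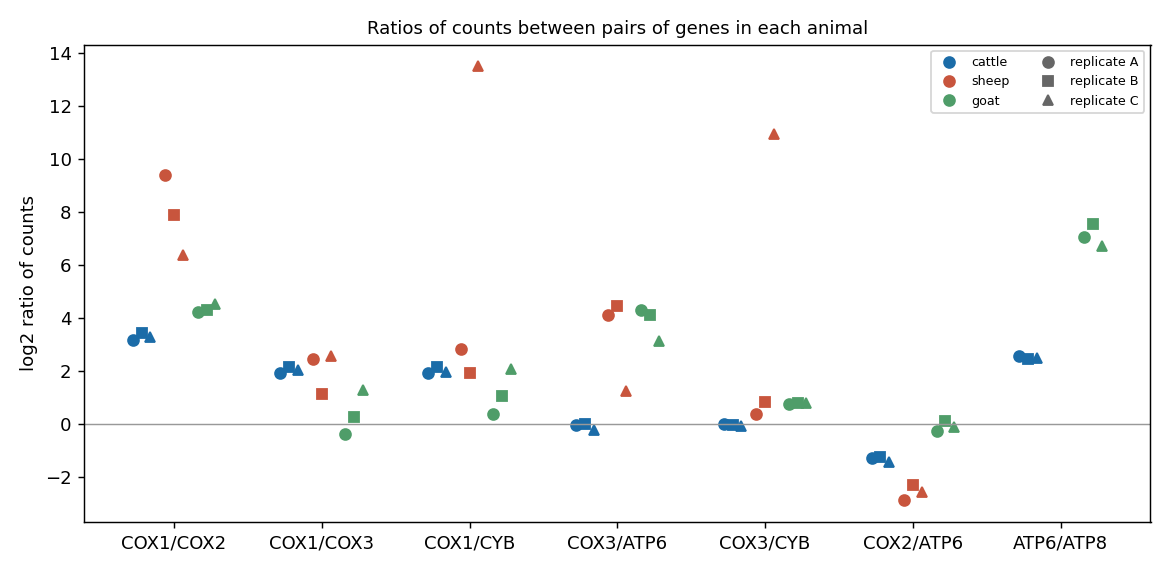
log2 ratio of the counts of 2 genes (y axis) in each animal for 7 gene pairs (x axis), coloured by species, with symbols for replicates A, B, and C. Cattle points lie close together for every pair, goat points for COX3/CYB coincide, and sheep replicate C stands far up for the 2 ratios over CYB.

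The spread between animals differed by species. In cattle, the highest library was at most 1.25 times the lowest for each of the 6 genes. In goats, replicate C had the highest and replicate A the lowest CPM of the library total for all 6 genes, with a spread from 2.32-fold (CYB) and 2.35-fold (COX3) to 7.40-fold (COX1). In sheep the genes did not move together: replicate C had the most COX2 and ATP6, 4.90-fold over replicate A for the latter, yet the least COX3 and CYB, and replicate A had the most COX1. Goat replicate C also had a TMM factor of 1.42, against 0.826 to 1.13 in the other libraries, and after division by these factors goat replicate B, not C, was highest for COX3 (2689 against 2010.3) and CYB (1566 against 1172), while replicate A stayed lowest for all 6 genes.

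By the SD over the libraries of the log2 ratio of their counts, each gene was compared with the other longer mitochondrial genes. COX1 was most like COX3 (SD 1.002 over 9 libraries), COX3 most like ND4, a complex I gene (SD 0.731), and COX2 and ATP6 most like each other (SD 1.09). ATP8 was most like ND3 over the 6 cattle and goat libraries (SD 1.96), and CYB most like ND3 over 9 libraries (SD 3.39), a value that includes sheep replicate C. Among 7629 nuclear genes, for which the median SD against COX1 was 1.95, the genes most like COX1 were ENSBTAG00000000920 (chromosome 19, 53691404 to 53787907 on ARS-UCD1.2; SD 0.538) and ENSBTAG00000013806 (chromosome 1, 157125001 to 157190548; SD 0.617). The CPM of the former was 9.08 to 10.2 across the cattle, 4.27 to 6.85 across the sheep, and 0.252 to 4.66 across the goats. These likenesses are descriptions over livers of 3 species and carry no test.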

How the data were processed

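RNA-seq counts of 9 liver libraries were used, with species and replicate letters taken from the labels. The authors trimmed reads with Trimmomatic 0.39, mapped them with STAR 2.7.6, allowing at most 3 mismatches, to the Ensembl genome of each species, and deposited raw counts per gene from featureCounts. Its strand, read-pair, overlap, and multi-mapping options are not given in the sources used here. Reads with more mismatches to the reference were not counted, and how many such reads each library had was not tested.

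CPM was computed from the total of each library. Nuclear genes were matched by internal exon lengths and gene order (8925 genes). On a copy of the cattle annotation with simulated losses and length changes, 1 of 9780 pairs was wrong and 79.9% of eligible genes were recovered. The copy kept the cattle gene order, so errors of matching between species were not measured. With the 13 mitochondrial genes listed in every species, the matched genes were tested with edgeR 4.0.16 in R 4.3.3. The settings were TMM, a CPM above 1 in at least 2 libraries, all 9 libraries in a single robust quasi-likelihood fit, and Benjamini-Hochberg adjustment at 0.05. ATP8 was tested in the 6 cattle and goat libraries. The design had foreseen 15 mitochondrial genes in every species; the sum was therefore taken over 5 genes. Ratios had 0.5 added to each count before the log2. DESeq2 1.42.0, other totals, filters, and gene matches, the replicate block, and each library left out were alternatives. The fit of cattle and goats alone, the means without single libraries, and the CPM divided by TMM factors were added after seeing the data. All 6 genes are named; genes alike follow a fixed rule of smallest SD. The genes and tests were chosen with earlier results of these data known. Nuclear subunit lists and cell markers were not analysed here, since identifiers had no names. The edgeR and DESeq2 p-values rest on a spread between animals estimated jointly over all libraries of a fit, with at most 3 animals per species. A permutation p-value is the share of groupings with a statistic at least as large.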

Additional observations from a re-analysis of the deposited data

How the results depend on the processing

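Of 430 values recomputed under an alternative, 396 kept their direction and side of the threshold or stayed close to the first value. A number of genes called that fell from 4 to 3 was held close. A ratio could not change direction with ranks, or when the library left out was of a species outside the compared pair. The 396 therefore include alternatives in which no change of direction was possible. The number of the 5 genes called between sheep and goats was 2 with DESeq2, which added ATP6, and 0 to 1 when single replicates were left out (0 without goat replicate B). Between cattle and sheep it ran from 2 (without cattle replicate A or sheep replicate A) to 4 in such fits, and between cattle and goats from 4 to 5. The number of gene pairs whose ratio differed between species was 3 by Kruskal-Wallis H and 4 to 8 when single replicates were left out. The log2 ratio of ATP6 over CYB in sheep minus goats was 3.84, -0.61 without sheep replicate C, and up to 6.08 without another replicate. The log2 share of the 5 genes in cattle minus the mean of sheep and goats was 2.72, 2.45 to 2.95 without single replicates, and 2.84 over the counts outside the mitochondrial sequence. Over the mitochondrial mRNA counts it was 0.34 and over all mitochondrial counts 0.47, averages of opposite directions, since cattle lay below sheep and above goats. The exact permutation p, at most 0.00714 in each case, is for any difference among the 3 species. Without TMM, the median log2 fold change of all genes moved from -0.05 to -0.22 for cattle against goats, and ATP8 was at 10.37. The sheep differed from the goats in 1950 of all genes tested, and in 1268 when goat replicate B was left out.

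Libraries of one letter come from animals of different species and were not treated as pairs in the main fits. Their deviations from the species means correlated at r from -0.167 to 0.297, highest between sheep and goats for letters A and B. These r values carry no test and cannot exclude an effect shared by letter. With the letter as a replicate block, 4, 4, and 1 of the 5 genes were called in the 3 comparisons and ATP8 was at a log2 fold change of 10.88; no call changed. For ATP8, the fits without a filter, with totals outside the mitochondrial sequence, and with at least 4 internal exons matched were not run, and sequences of the 6 genes were not analysed. The values of ATP8 in goats and of CYB in sheep replicate C rest on 16 to 52 counts, so their relative counting error is larger than that of the other values.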
